A study of Arabidopsis thaliana with 4 samples.

Results

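The first 20 plates of the TA series, the stretch that precedes the earliest run of low plates on the array, held 1912 of the 21728 probes with a value (8.80%). Its members were taken by name alone, as every valued probe on plates 1 to 20, and placed in the order of plate, row and column. The upper limit of the stretch was set from plate medians of these same values, so the levels given here describe the stretch and were not tested against the rest of the array. Plates 1 to 20 have 1920 wells, and 8 of them had no valued probe: 5 in plate 20, 2 in plate 17 and 1 in plate 19.

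Dimethylation of lysine 4 of histone H3 was profiled in untreated whole seedlings of Arabidopsis thaliana, ecotype Col-0, 10 days old. Per the labels' protocols, they were cultured in liquid MS medium at 22 °C under 16 hours of light a day at 100 µE. Immunoprecipitated DNA was hybridised against its own input on 2-colour arrays, with 4 arrays in 1 group: a dye swap for each of the replicates I and II. All seedlings shared this genotype and treatment, the tissue was a whole seedling with all its cell types together, and separate cultures for I and II are not stated. The spread between them may therefore be technical. Both columns of each swap were identical (0 of 21800 features differed), so each swap counted as 1 profile, called profile I and profile II here, and n was 2.

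The mark is written by methyltransferases that include members of the Trithorax group and is usually found along genes in euchromatin. In Arabidopsis it is scarce over transposons and repeats of heterochromatin, which instead carry dimethylation of lysine 9 of the same histone. Because it follows genes and skips the silent sequence between them, a profile of the mark along a chromosome arm commonly alternates between raised and lowered intervals.

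Values are deposited log ratios of unstated base, each replicate centred on its own median over all valued probes (-0.02 in profile I and 0.47 in profile II before centring). The sources used here do not give the direction of the ratio, so "high" and "low" refer to the deposited sign. If a positive value stood for input over immunoprecipitate, every high domain below would be a low one and every low domain a high one. No probe name of the stretch matched any of 38312 genes of a RefSeq gene table, and neither chromosome nor position was known for the probes. Whether the stretch lies on a chromosome arm was therefore not tested.

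Relative to the array median, the stretch was mostly high, with low intervals along it. Its median was 0.33 in profile I and 0.36 in profile II, a mean of 0.34 ± 0.02 (SD, n = 2). The lower and upper quartiles of the probes were -0.38 and 0.80 in profile I, and -0.38 and 0.85 in profile II. The whole range was -2.12 to 2.43 in profile I and -2.39 to 2.34 in profile II, so single probes of the stretch reached both extremes although its median lay above the array's. Smoothed with a kernel of bandwidth 0.1, the most common value was 0.49 in profile I and 0.73 in profile II. Both lay above the median. Profile II had a smaller peak at -0.88 and a slight one at -2, both of which profile I lacked, and profile I had one at -0.15.

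Calls against the array median were taken from limma's moderated test with Benjamini-Hochberg adjustment at 0.05, fitted over all 21728 probes. Of the 1912 probes, 1007 (52.7%) were called higher, where 40.3% of all probes of the array were, and 515 (26.9%) were called lower, where 40.2% of all probes were. The other 390 (20.4%) were not called in either direction. The smallest mean called was 0.30 on the high side and -0.30 on the low side. Centred on the array's main mode in place of its median, the stretch stood at -0.23, with 386 probes called higher and 854 lower. Without centring, which leaves the offset of 0.49 between the profiles in place, 945 were called higher and 272 lower. These shares follow from how the stretch was bounded and are given as a description.

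Plate medians were above 0 in both replicates on 17 of the 20 plates. Plate 20 was the highest, at 0.66 in profile I and 0.69 in profile II, followed by plate 7 at 0.49 and 0.64 and plate 15 at 0.40 and 0.57. Plate 8 was the lowest, at -0.45 in profile I and -0.53 in profile II, and plate 1 was next at -0.11 and -0.29. These were the 2 plates below 0 in both replicates. Plate 16, the third lowest, stood at -0.05 in profile I and 0.11 in profile II, on both sides of 0. Probes of 1 plate varied more than plates did: the standard deviation of probe means within a plate lay between 0.61 in plate 4 and 1.002 in plate 19.

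**Figure D1:**
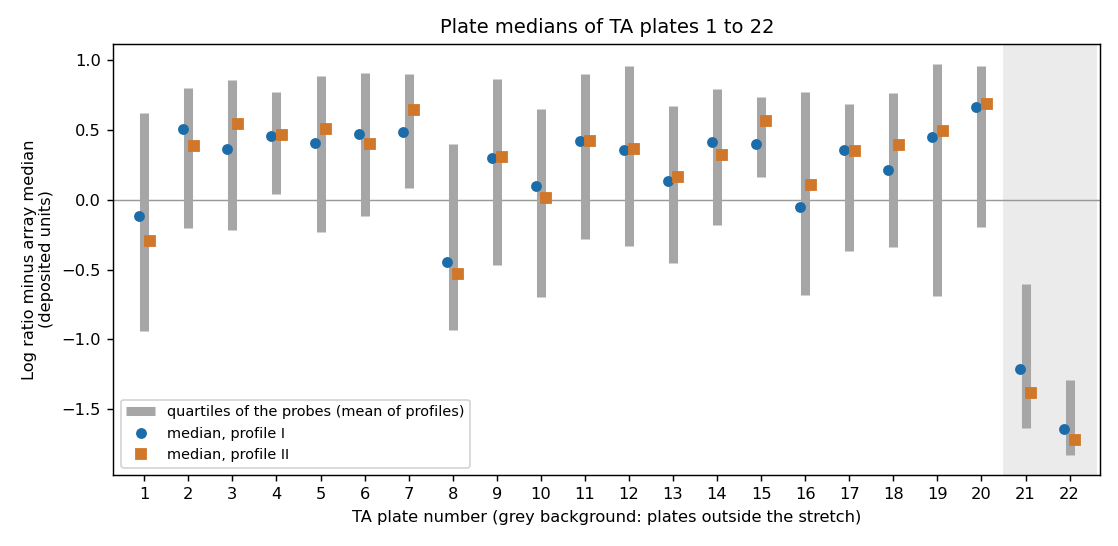
Median log ratio of each TA plate from 1 to 22 (circles, profile I; squares, profile II), in deposited units relative to the array median, with bars between the quartiles of the probes. Plates 1 and 8 lie below 0 in both replicates, plate 20 is the highest at 0.66 and 0.69, and plates 21 and 22, outside the stretch, drop to -1.21 and below.

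Read from its start, the stretch fell into sections, whose limits were chosen from the plate medians. Plate 1 had 46.9% of its probes called lower and 35.4% called higher. Plates 2 to 7 formed the most evenly high section, with a median of 0.45 in profile I and 0.51 in profile II, 59.5% of 576 probes called higher and 18.6% lower. Plates 8 to 10 had a median of -0.05 in profile I and -0.03 in profile II, and called higher and called lower were about equally common there (115 and 117 of 288 probes). Of these plates only plate 8 was itself below 0. Plate 9 stood at 0.30 in profile I and 0.31 in profile II, and plate 10 at 0.10 and 0.01. Plates 11 to 20 returned to 0.35 in profile I and 0.40 in profile II, with 54.1% of 952 probes called higher and 25.8% lower. At the scale of plate rows (12 wells), 106 of 160 rows had a median above 0 in both replicates and 43 had one below 0 in both.

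Domains were defined as at least 5 consecutive probes with the same call. There were 72 high domains with 662 probes (34.6% of the stretch) and 30 low domains with 266 probes (13.9%). Over all probes of the array, high domains covered 25.3% and low domains 28.5%. In the stretch both kinds had a median length of 7 probes, as over the whole array, and 29 high and 9 low domains had 10 probes or more. Centred on the main mode, 12 high and 51 low domains were left, and with a minimum of 3 probes there were 135 and 59, so these numbers hold for the definition used. The median of a high domain lay between 0.45 and 1.47 and that of a low domain between -1.60 and -0.69. High domains followed each other closely, with a median of 8 probes between the end of one and the start of the next, whereas low domains were 48 probes apart. Every plate held the start of a high domain, and 15 of 20 plates held that of a low domain.

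**Figure D2:**
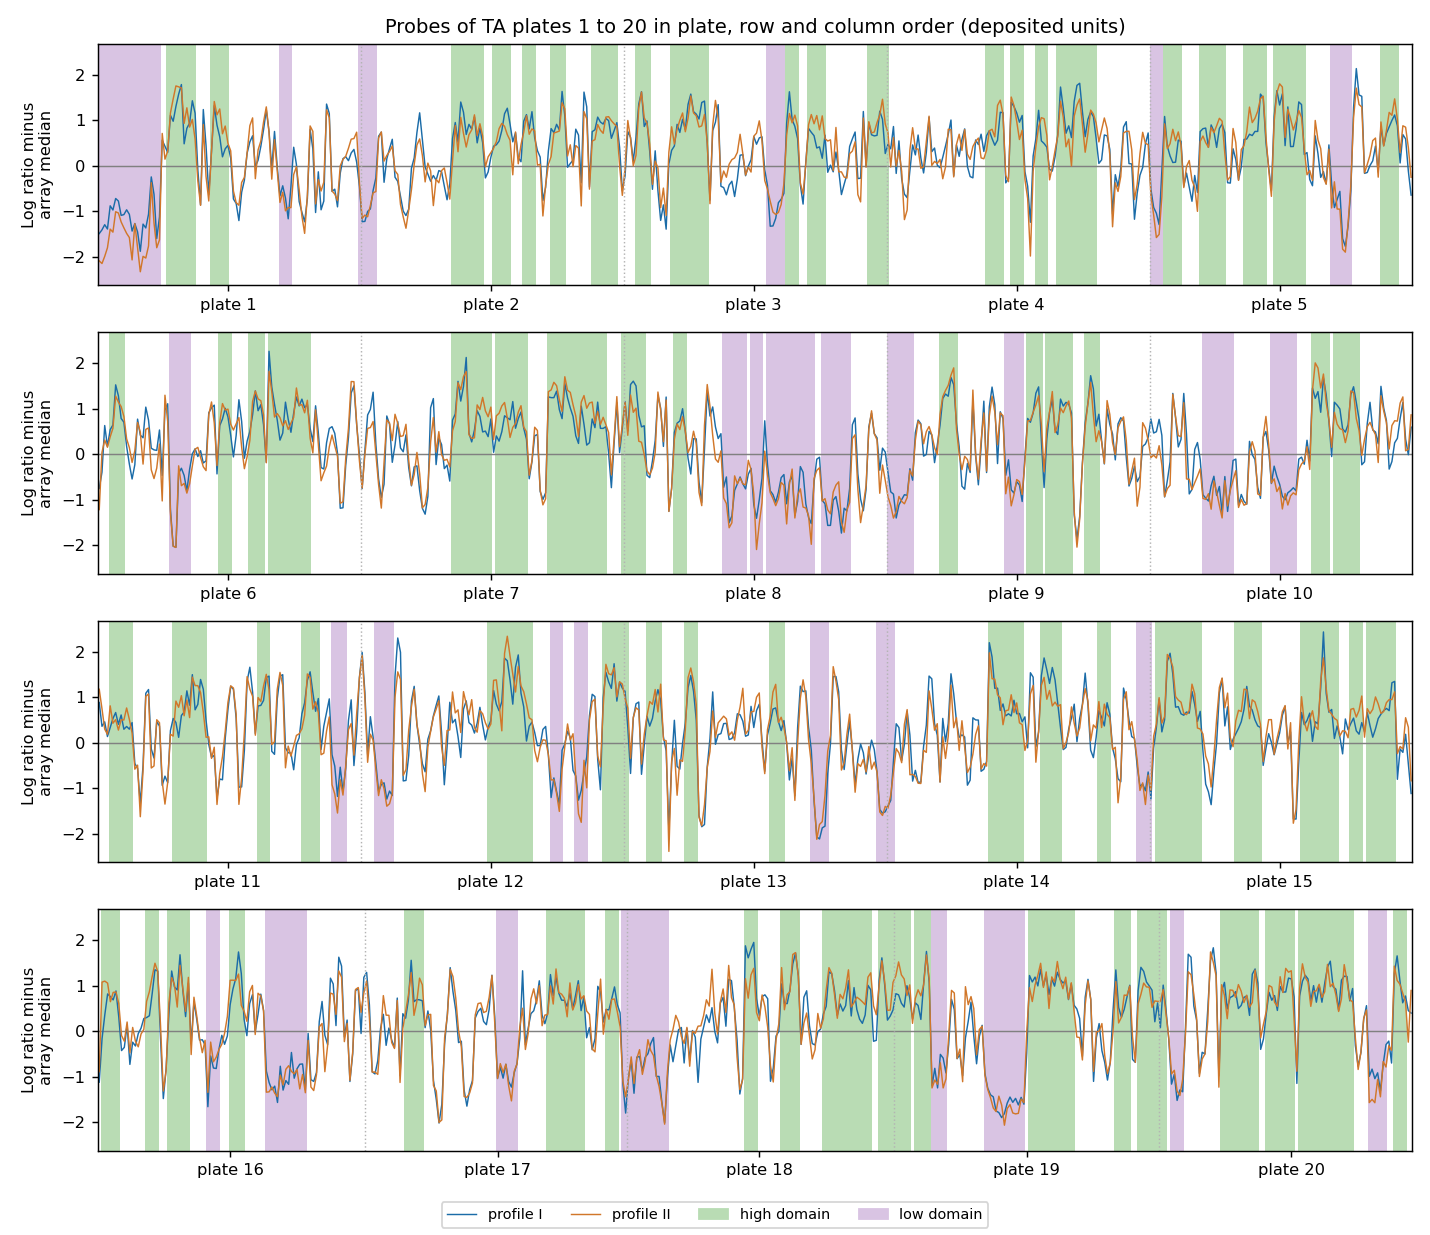
Log ratio of the 1912 probes of TA plates 1 to 20 relative to the array median, in deposited units, in 4 panels of 5 plates in probe order (blue, profile I; orange, profile II). Shading marks the 72 high domains (green) and the 30 low domains (violet), and the low domains are seen to gather at the start of plate 1 and in plate 8.

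The longest high domain covered 22 probes, wells TA07F09 to TA07H06, with a median of 0.80 in profile I and 1.13 in profile II. The second, TA20E08 to TA20G03, had 20 probes at 0.999 and 0.91, and the third, TA18F11 to TA18H04, had 18 probes at 0.55 and 0.77 in replicates I and II. The third lay below 0.86, the median over all high domains, and the domain with the highest median, TA18D07 to TA18D11, had only 5 probes, at 1.80 in profile I and 1.15 in profile II. Among the high domains its profiles also differed most, by 0.64.

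Of the next high domains, 3 had 17 probes: TA12D11 to TA12F03, TA15A03 to TA15B07 and TA19E02 to TA19F06. Their medians were 0.84 in profile I and 1.12 in profile II for the first, 0.69 and 0.89 for the second, and 1.08 and 1.06 for the third. TA06F03 to TA06G06 had 16 probes at 1.04 and 0.85, and its first probe was its highest. TA04F03 to TA04G05 and TA07C10 to TA07D12 had 15 probes each, at 1.08 and 0.94 and at 0.77 and 0.98, and TA03B06 to TA03C07 had 14 at 1.02 and 0.93. A total of 4 high domains had 14 probes, of which TA03B06 to TA03C07 came first along the stretch; the others were TA15E08 to TA15F09, TA17F08 to TA17G09 and TA20C01 to TA20D03. The lowest profile median among the domains of more than 14 probes was 0.55, in TA18F11 to TA18H04.

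Plates 7, 15 and 20 held the most probes in high domains, with 50, 57 and 53. In plate 20, TA20C01 to TA20D03, TA20D06 to TA20E06 and the 20-probe domain TA20E08 to TA20G03 lay nearly end to end. A single probe called lower, TA20E07, at -1.15 in profile I and -0.88 in profile II, parted the second of these from the third.

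The longest low domain was the start of the stretch itself. All 23 probes of TA01A01 to TA01B11 were called lower, with a median of -1.13 in profile I and -1.63 in profile II. The lowest of them, TA01B04, stood at -1.88 and -2.33, and the mildest, TA01B08, at -0.25 and -0.38. Profile II was below profile I at 23 of these 23 probes, so both profiles share the shape but not the depth. The next probe, TA01B12, was at 0.56 in profile I and 0.71 in profile II. A high domain of 11 probes, TA01C02 to TA01C12, began after 1 further probe and reached 1.78 and 1.71 at TA01C07.

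The deepest long low domain was TA19C09 to TA19D12 in plate 19, with 15 probes at a median of -1.57 in profile I and -1.62 in profile II. It began at -0.93 and -0.97 in TA19C09, and its lowest probe, TA19D05, stood at -1.81 and -2.07. The 14 probes from TA19C10 on were all below -1 in both replicates, the longest such run of the stretch. The level held to the last probe, TA19D12, at -1.61 and -1.57. TA19E01 was then at -0.49 and -0.03, and TA19E02, the first probe of a 17-probe high domain, at 1.22 and 0.95. Low and high domains were here separated by a single probe.

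Low domains crowded in plate 8, where 4 of the 30 began and 43 of their 266 probes lay. Plates 9 and 10 held 17 and 22 such probes, against 29 in plate 1, 21 in plate 19 and 20 in plate 16. Plates 8 to 10 together held 82, and 8 of the low domains began there. TA08E05 to TA08F10 had 18 probes at a median of -0.82 in profile I and -0.94 in profile II. TA08G01 to TA08G11 followed with 11 probes at -1.19 and -1.06, and TA08D01 to TA08D09 preceded them with 9 probes at -0.73 and -0.67. Together with TA09A01 to TA09A10, 10 probes at -0.89 and -0.998, these lay in rows D to G of plate 8 and the first row of plate 9. No high domain lay between TA08B11 and TA09B08, a gap of 92 probes and the longest without one.

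In plate 10, TA10B08 to TA10C07 had 12 probes at -0.81 in profile I and -0.92 in profile II, and TA10D09 to TA10E06 had 10 probes at -0.77 and -0.86. These were shallower than the domain of plate 19. The remaining long ones were TA17H11 to TA18B03, 17 probes across a plate border at -0.995 and -0.95, and TA16F01 to TA16G03, 15 probes at -1.09 and -1.18. By contrast, plates 2 to 7 held the start of 4 low domains in 576 probes. The longest part of the stretch without a low domain, 194 probes, reached from TA06C10 to TA08D01 and took in all of plate 7.

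**Figure D3:**
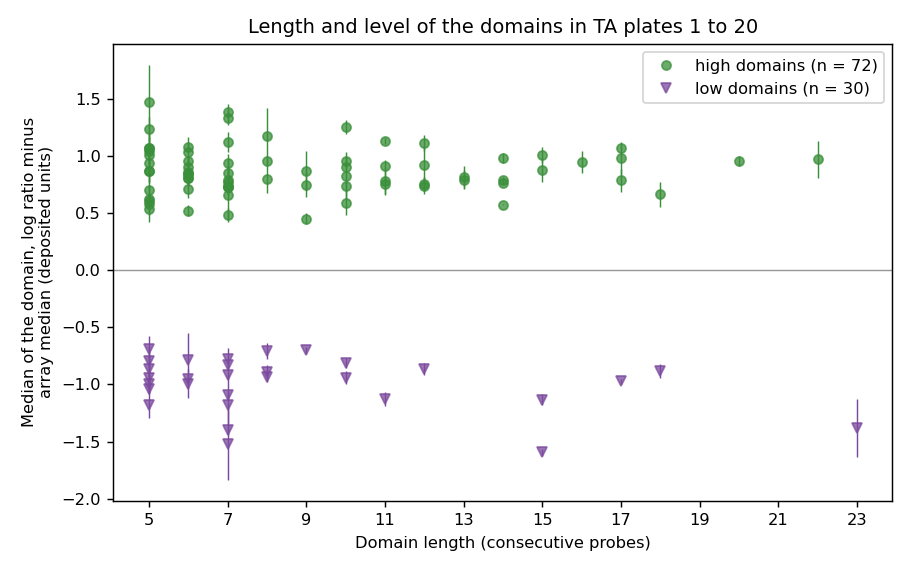
Length of each domain in probes against its median log ratio in deposited units relative to the array median (circles, 72 high domains; triangles, 30 low domains; vertical lines join the medians of replicates I and II). High domains of all lengths stay between 0.45 and 1.47, and the longest low domain, with 23 probes, has the widest line among domains of at least 10 probes.

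Stronger levels came in short runs on the high side. A total of 236 probes (12.3%) were above 1 in both replicates and 151 (7.90%) were below -1 in both, against 7.93% and 20.9% of all probes outside the stretch. In the TB plates the shares were 11.4% and 4.62%, so the high share was close to that of the stretch. Within the stretch, runs of at least 3 such probes numbered 24 on the high side, none longer than 5 probes, and 18 on the low side, up to 14 probes. The longest low runs, of 14 probes in plate 19 and 8 in plate 1, passed 5 probes, and the other low runs did not. These runs held 80 of the 236 high probes and 78 of the 151 low probes. With each high domain divided into 3 equal parts, its highest probe lay in the first part in 24 of 72 domains, in the middle part in 26 and in the last in 22.

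The 5 highest probes were TA15F04, TA14D02, TA12E06, TA06F03 and TA07D03. TA15F04 stood at 2.43 in profile I and 1.86 in profile II, a mean of 2.15 ± 0.40 (SD, n = 2), with its neighbours TA15F03 and TA15F05 at means of 1.28 and 1.14. TA14D02 was at 2.20 and 1.97, directly after a probe with a mean of -0.47, and TA12E06 was at 1.80 and 2.34 between neighbours at 1.91 and 1.64. TA06F03 was at 2.26 and 1.82 and TA07D03 at 2.12 and 1.82. Each of the 5 lay in a high domain, and for 2 of them, TA14D02 and TA06F03, it was the first probe of that domain.

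The 5 lowest probes were TA13B05, TA01B04, TA13F11, TA06C05 and TA18B02. TA13B05, at -1.94 in profile I and -2.39 in profile II, stood nearly alone, with a mean of -0.07 in the probe before it and -0.44 in the probe after it. TA13F11 was at -2.07 and -2.13, TA06C05 at -2.05 and -2.05, and TA18B02 at -2.02 and -2.05. In these 3, profiles I and II differed by less than 0.1. The limma standard errors of all probes of the stretch lay between 0.143 and 0.154, because the variance was mostly pooled over the array.

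The steepest changes of level took a few probes. Steps were measured as the median of 5 probes after a border minus that of 5 probes before it. The largest step down and the largest step up both belonged to 1 narrow valley of plate 13. Before it, TA13F05 to TA13F07 stood between 1.12 and 1.24 in profile I and between 0.97 and 1.38 in profile II. TA13F11 and TA13F12 were at -2.07 and -2.12 in profile I and at -2.13 and -1.80 in profile II, and TA13G05 had returned to 1.45 and 1.67. The step down was -2.99 in profile I and -2.71 in profile II, and the step up was 2.99 and 2.69. The level thus passed below -2 and returned above 1 within 10 probes.

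The second largest step down, -2.74 in profile I and -2.70 in profile II, lay at TA13C02 and TA13C03 in the same plate. There TA13C03 was at 0.49 and 0.84 and the next probe, TA13C04, at -1.61 and -1.65. The second step up, 2.85 and 2.56, was at TA05G01 and TA05G02 in plate 5, where TA05G02 was at -0.56 and -0.43 and TA05G04 at 2.13 and 1.70. The third up was the end of the low domain of plate 19, at 2.65 and 2.75. The other steps up among the 5 largest were at TA12A11 and TA12A12, 2.52 and 2.16, and at TA09F11 and TA09F12, 2.45 and 2.11. The other steps down were at TA09F07 and TA09F08, -2.43 and -2.27, at TA17B11 and TA17B12, -2.17 and -1.95, and at TA19B01 and TA19B02, -1.86 and -2.19.

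At the 144 ends of high domains, the first probe inside had a median of 0.64 in profile I and 0.65 in profile II, and the second 0.90 in both. The probe just outside was at -0.08 and -0.03, and the one beyond it at -0.17 and -0.02, so the profile dipped beside high domains and recovered to 0.30 and 0.38 at the fourth probe outside. The definition fixes that the first probe inside is called and that the first outside does not carry the same call. These medians are therefore a description. At the ends of low domains the first probe inside was at -0.66 in profile I and -0.88 in profile II and the probe just outside at 0.09 and 0.07. Of the 59 ends of low domains with a called probe beyond them, the next called probe was a higher one at 44 (74.6%). At 21 of these no uncalled probe lay between. At the 144 ends of high domains the next called probe was a lower one at 86 (59.7%), at 41 of them with no uncalled probe between. Where none lay between, the definition fixes the opposite call. Past uncalled probes, the next call at low domains was higher at 16 ends after 1 probe and at 7 after more, and lower at 15. At high domains it was lower at 30 ends after 1 probe and at 15 after more, and higher at 58. Over the whole stretch 1007 probes were called higher and 515 lower, so higher calls were the more common kind in any case.

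**Figure D4:**
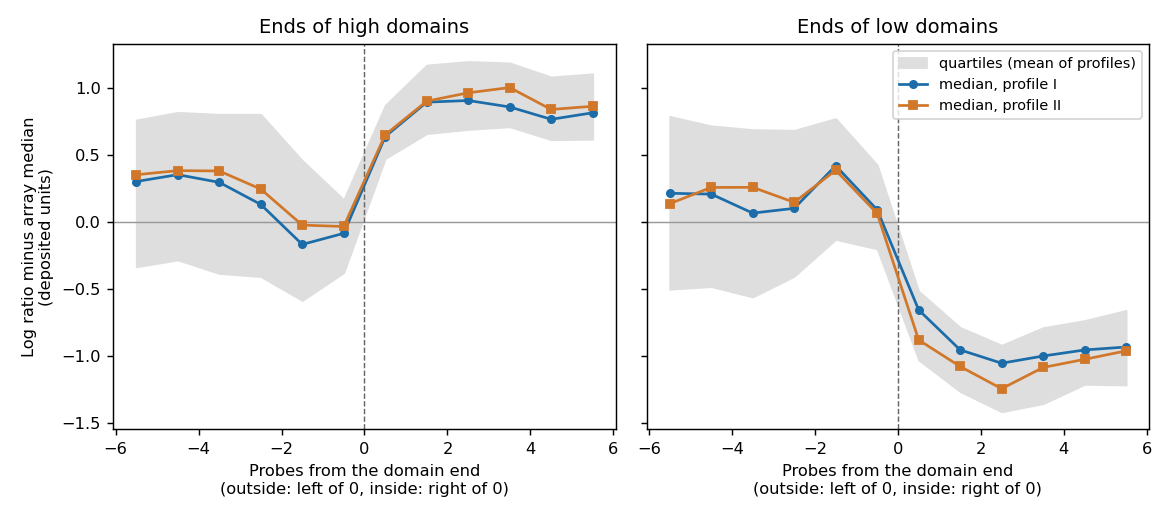
Median log ratio in deposited units relative to the array median at 6 probes on each side of the ends of high domains (left) and low domains (right), for profile I (circles) and profile II (squares), with the range between the quartiles shaded. In both panels the level changes within 2 probes, to 0.90 at the second probe inside high domains.

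Consecutive probes mostly carried the same call. A probe called higher was followed by another one called higher in 78.1% of cases, by an uncalled one in 15.5% and by a lower one in 6.36%. A probe called lower was followed by another one called lower in 68.3% of cases and by a higher one in 13.01%. Of all probes in the stretch, 52.7% were called higher and 26.9% lower. Only 16 probes were called against both of their neighbours. Of these, 13 were lower probes between higher ones, such as TA20B12, at -0.98 in profile I and -1.23 in profile II between means of 1.25 and 0.95, and 3 were higher probes between lower ones. Higher calls were the more common kind, at 1007 probes against 515. Runs of higher calls were also longer, with a mean of 4.56 probes against 3.16.

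Values of consecutive probes correlated with r = 0.712 over 1911 pairs, which share the arrays and are not independent. The correlation was 0.440 at a distance of 2 probes, 0.285 at 3, 0.167 at 6 and 0.131 at 12. It was 0.0302 at 24 probes, -0.0679 at 48 and -0.0230 at 96. When profile I was paired with the next probe of profile II, r was still 0.666, and the other way round it was 0.684. Neighbours were therefore similar across the separate profiles as well as within each. The 19 pairs across plate borders had r = 0.881, against 0.710 for the 1892 pairs within a plate. A total of 5 high and 4 low domains ran across a border.

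**Figure D5:**
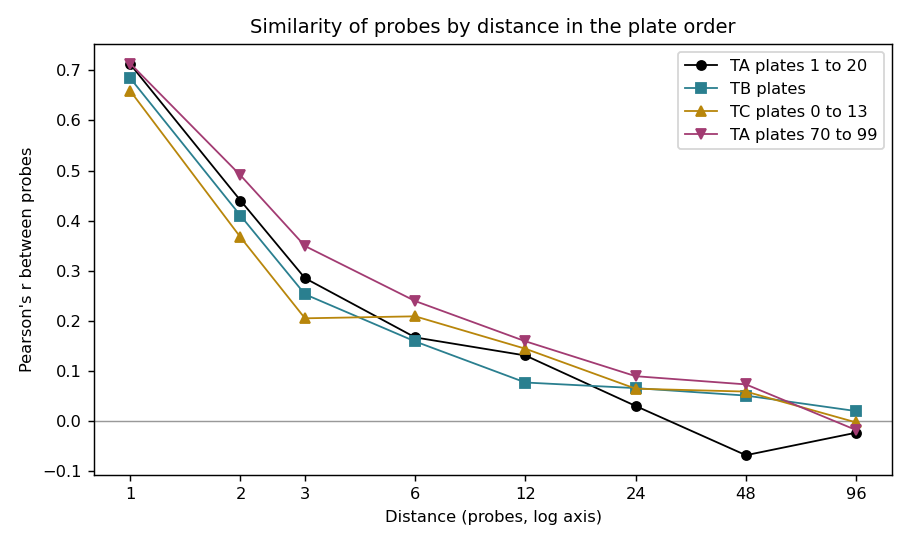
Pearson's r between replicate means of probes (vertical axis) against their distance in probes (horizontal, log axis) for TA plates 1 to 20 and for 3 other sets of plates. The curve of TA plates 1 to 20 starts at 0.712 and is at 0.0302 at 24 probes, and the other sets start between 0.659 and 0.713.

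The replicates followed each other closely within the stretch. Over the 1912 probes they correlated with r = 0.933 (Pearson) and rho = 0.922 (Spearman), and 1743 probes (91.2%) had the same sign in both. The value in I minus that in II varied with a standard deviation of 0.31 over probes. Opposite signs occurred at 169 probes, and 8 of these were called even so. The widest differences among the 8 were at TA16A02, -0.17 in profile I and 1.08 in profile II, TA18C02, -1.13 and 0.11, and TA19C02, -0.15 and 0.98. All 3 lay in the second column of their plates, whereas the others of the 8 lay in other columns, and an effect of the column was not tested. The direction of these 3 probes rests on 1 replicate.

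Of other sets of plates, the TB plates (9588 probes), TC plates 0 to 13 (1281 probes) and TA plates 70 to 99 (2874 probes) were set beside the stretch. The stretch had a median of 0.34 ± 0.02, against 0.34 ± 0.02 in the TB plates, 0.37 ± 0.01 in TC plates 0 to 13 and 0.04 ± 0.02 in TA plates 70 to 99 (SD, n = 2 each). High domains covered 34.6% of the stretch, against 34.7%, 35.3% and 24.5% of these sets in the same order. Low domains covered 13.9% of the stretch, against 10.9%, 11.2% and 18.8%. Probes of the stretch spread with a standard deviation of 0.82 in profile I and 0.85 in profile II, against 0.76 and 0.76 in the TB plates, 0.76 and 0.75 in TC plates 0 to 13, 0.82 and 0.82 in TA plates 70 to 99, and 0.95 and 0.99 over all probes outside the stretch. In the stretch 7.90% of the probes were below -1 in both replicates, against 4.62% in the TB plates and 20.9% of all probes outside the stretch. Above 1 in both replicates were 12.3% of the stretch, 11.4% of the TB plates and 7.93% of all probes outside the stretch. With 2 profiles a two-sided sign-flip test cannot give a p below 0.5, so none of these differences was tested.

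The limit of the stretch lay between plates 20 and 21, whose medians were 0.66 and -1.21 in profile I and 0.69 and -1.38 in profile II. The rows of plate 20 next to it were still mixed, with row F at 0.999 in profile I and 0.88 in profile II, row G at -0.40 and -0.31 and row H at 0.42 and 0.20. Row A of plate 21 lay above the median of the stretch, at 0.57 and 0.54. A run of 5 higher probes, TA20H12 to TA21A04, crossed the border, with 1 of its probes in plate 20. Row B of plate 21 stood at -0.89 and -0.60, row C at -1.08 and -1.32 and row D at -0.22 and -0.34, and all probes of rows E to H were called lower. The high level of the stretch therefore ended within plate 21 and not at its first well.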

How the data were processed

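The deposited table holds 1 column of log ratios per array. The sources used here give neither the log base nor the direction, the background correction or the normalization of these values. Scanner intensities were not used. Per the labels' protocols, 15 µg of DNA per channel was amplified and labelled with Cy3 and Cy5. Swap columns were averaged and each replicate was centred on its median, with no loess or quantile step. All 21728 probes were fitted with limma 3.58.1 (R 4.3.3), intercept only, with 117 estimated prior degrees of freedom, which 1 residual degree of freedom per probe determines poorly. On simulated data with 200 of 21728 probes changed, in 20 runs, the fit recovered 40.5% of the probes changed by 0.5 and 99.9% of those changed by 1, with 4.65% false calls on average. In the measured data 40.3% of all probes were called higher and 40.2% lower, far more than were changed in the simulation. The adjusted cut-off therefore differs, and the simulated rates do not describe the calls made here. Empty wells did not end a run. Named were the 10 longest domains of each kind, the 5 highest and lowest probes, the 5 largest steps each way and the 3 highest and lowest plates; other wells were named after their values were seen. The members and rules were chosen with earlier results of these data known. Python 3.11.15, numpy 2.4.6, pandas 2.3.3, scipy 1.17.1 and matplotlib 3.10.9 were used.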

Additional observations from a re-analysis of the deposited data

How the results depend on the processing

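The centre moved the median of the stretch, its calls and its domains. Centred on the main mode, the median of the stretch was -0.23, with 386 probes called higher, 854 lower, 12 high and 51 low domains. Without centring it was 0.57, with 945 probes called higher and 272 lower. Centred on the TB plates it was 0.0016, as a mean 0.21, in plates 2 to 20 0.36 and in plates 1 to 21 0.31; leaving out a replicate gave 0.33 and 0.36. The stretch exceeded all other probes by 0.38, by 0.36 with means, by 0.14 without the low blocks and by 0.0016 against the TB plates, and with 1 replicate left out by 0.36 and 0.39. A minimum of 3 probes gave 135 high and 59 low domains, and one of 8 gave 35 and 13. The neighbour correlation was 0.684 by Spearman's rho, 0.687 to 0.714 with 1 replicate left out, and 0.666 and 0.684 across replicates. The replicate correlation was 0.922 by Spearman's rho and 0.933 without plate medians. The plates of the stretch and the sets compared were varied after seeing the data. Another centre shifts all probes of a profile by 1 amount, which differs between profiles, and without centring their offset of 0.49 remains; otherwise the cause was not tested. Not run were 4 arrays taken as independent, since swap columns were identical. Signal over background could not be examined.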
